A study of Homo sapiens with 10 samples.

Results

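AOPEP, the gene of aminopeptidase O, was the most strongly lowered of the M1 aminopeptidases measured in PC3 cells after coculture with bone marrow adipocytes, while ANPEP, its relative at the cell surface, was higher. The genes described here are AOPEP, ANPEP, ENPEP, LNPEP, NPEPPS, RNPEP, RNPEPL1 and LTA4H, which are 8 of the 60558 genes in the deposited tables and were taken by symbol. They were selected on their expected counts and TPM in cocultivated against non-cocultivated cells. Their values in that contrast are therefore given as a description without a test, and the counts of members past a threshold support nothing.

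PC3 is a human prostate cancer cell line derived from a bone metastasis, and the labels give its genotype as WT. In the 5 cocultivated libraries the PC3 cells had spent 3 days with human bone marrow adipocytes. In the 5 non-cocultivated libraries they had been grown without them. How the RNA of the PC3 cells was kept apart from that of the adipocytes is not given in the labels. Each of the batch numbers 1 to 5 holds 1 library of each group, and a library is named here by its group and that number. Nothing in the labels tells if replicate libraries were separate cultures, and p-values then measure the spread between these libraries, which may be technical.

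M1 aminopeptidases are zinc enzymes that remove single amino acids from the N terminus of peptides. They finish the breakdown of peptides released by the proteasome, trim antigens for MHC class I molecules, and switch peptide hormones on or off. In the angiotensin cascade, ENPEP (aminopeptidase A) makes angiotensin III from angiotensin II, ANPEP (aminopeptidase N, or CD13) can make angiotensin IV from it, and LNPEP binds angiotensin IV.

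AOPEP lies on chromosome 9, and its transcribed region holds the genes of miR-23b, miR-27b and miR-24. The mature strands named 3p are shown here because these microRNAs lie inside, and on the strand of, the gene with the largest change. Capitals mark the seed, bases 2 to 8, which pairs with target transcripts. The sequences are those of RefSeq, build GRCh38.p14, at chr9:95085265-95085287, chr9:95085505-95085525 and chr9:95086064-95086085, all on the + strand.
hsa-miR-23b-3p: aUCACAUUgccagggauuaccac
hsa-miR-27b-3p: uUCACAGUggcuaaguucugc
hsa-miR-24-3p: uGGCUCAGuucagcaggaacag
The 3 seeds differ from one another. The rows of MIR23B, MIR27B and MIR24-1 held 0 expected counts in all 10 libraries, in tables made from mRNA libraries, so the microRNAs themselves were not measured. MIR2278 and MIR6081, 2 further microRNA genes inside AOPEP, and MIR3074 on the opposite strand were also at 0. The overlapping long RNAs AL807757.1, AL807757.2, AL353768.1 and AL353768.2 reached at most 1 count in any library.

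RefSeq gives AOPEP and ANPEP 2 transcription starts each, and a gene table sums over both. The windows shown run from upstream of each start into the first bases of the transcript, and they are printed because these are the members with the largest changes, in opposite directions. The AOPEP windows are chr9:94726449-94726748 and chr9:94920968-94921267 on the + strand, and the ANPEP windows are chr15:89814803-89815102 and chr15:89806579-89806878 on the - strand. Capitals mark matches to TGACGTCA, the cyclic AMP response element.
AOPEP, upstream start: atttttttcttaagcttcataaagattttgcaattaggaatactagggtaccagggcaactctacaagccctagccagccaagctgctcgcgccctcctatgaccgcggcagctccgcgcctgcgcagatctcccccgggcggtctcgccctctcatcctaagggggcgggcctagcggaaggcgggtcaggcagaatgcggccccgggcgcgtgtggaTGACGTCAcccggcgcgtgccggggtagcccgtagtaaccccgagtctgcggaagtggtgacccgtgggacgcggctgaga
AOPEP, downstream start: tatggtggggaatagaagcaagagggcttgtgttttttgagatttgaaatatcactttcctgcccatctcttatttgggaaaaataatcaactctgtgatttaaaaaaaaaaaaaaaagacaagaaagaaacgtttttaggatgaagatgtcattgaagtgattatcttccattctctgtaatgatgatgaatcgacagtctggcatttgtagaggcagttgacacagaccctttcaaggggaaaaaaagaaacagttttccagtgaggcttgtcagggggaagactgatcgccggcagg
ANPEP, upstream start: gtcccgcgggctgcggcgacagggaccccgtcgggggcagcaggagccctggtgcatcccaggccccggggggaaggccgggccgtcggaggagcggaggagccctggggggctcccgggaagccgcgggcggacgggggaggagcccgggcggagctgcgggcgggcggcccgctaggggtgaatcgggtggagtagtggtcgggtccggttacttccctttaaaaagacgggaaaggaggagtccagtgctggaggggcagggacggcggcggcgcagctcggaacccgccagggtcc
ANPEP, downstream start: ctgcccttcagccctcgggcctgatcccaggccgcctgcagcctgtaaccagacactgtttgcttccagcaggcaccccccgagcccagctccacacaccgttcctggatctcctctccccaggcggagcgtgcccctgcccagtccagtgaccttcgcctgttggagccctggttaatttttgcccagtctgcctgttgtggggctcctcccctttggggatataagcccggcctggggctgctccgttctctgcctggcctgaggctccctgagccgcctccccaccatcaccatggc
Motifs of 5 kinds were searched on both strands in the 13 RefSeq windows of the 8 members. TGACGTCA occurred once, in the upstream AOPEP window, against 1.85% of the 35116 windows of all genes. GCGTG, the core of the xenobiotic response element, had 2 matches in that window and 1 in the downstream ANPEP window, and 36.5% of all windows hold it. AGGTCA, a site bound by nuclear receptors such as the PPARs, had 1 match in the downstream ANPEP window, against 13.8% of all windows. TGACNNNGC, the antioxidant response core, and TATAAA, the TATA box, had no match in these 4 windows and are held by 13.3% and 11.5% of all windows. In windows of other members, not shown, GCGTG had 3 matches in LTA4H and 2 in the downstream NPEPPS window. TGACNNNGC had 2 in the upstream LNPEP window and 1 in ENPEP, and TATAAA had 2 in ENPEP and 1 in the downstream LNPEP window. The searched letters do not overlap one another in the 4 windows. A match describes the letters of the window only.

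AOPEP read 21.6, 19.9, 18.8, 21.5 and 17.6 TPM (the deposited level, corrected for transcript length and library size) in cocultivated libraries 1 to 5, against 68.3, 60.9, 58.8, 59.4 and 64.1 TPM in non-cocultivated libraries 1 to 5. The groups lie far apart, since the highest cocultivated library is under the lowest non-cocultivated one, and the spread within each group is small. The means were 19.9 ± 1.75 TPM in cocultivated cells and 62.3 ± 3.93 TPM in non-cocultivated cells (SD, n = 5 each). The means of the expected counts behind them were 624 ± 72.7 in cocultivated and 1693 ± 218 in non-cocultivated libraries.

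The log2 fold change of AOPEP, cocultivated over non-cocultivated, was -1.31 ± 0.05 (SE) on the count scale, a fold of 0.404. It was lower in 5 of 5 batches, with log2 ratios between -1.49 in batch 5 and -1.14 in batch 4. Of the 15690 genes tested, 0.956% had a lower log2 fold change. In bulk RNA, fewer cells of a type and less RNA per cell cannot be told apart.

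ANPEP, a membrane enzyme that cuts neutral amino acids from peptides outside the cell, read 76.0, 67.2, 71.0, 62.8 and 73.7 TPM in cocultivated libraries 1 to 5, against 42.2, 43.2, 47.5, 46.0 and 47.4 TPM in non-cocultivated libraries 1 to 5. All 5 cocultivated libraries lay above all 5 non-cocultivated ones. The means were 70.1 ± 5.23 TPM in cocultivated and 45.3 ± 2.42 TPM in non-cocultivated cells (SD, n = 5 each). Its log2 fold change was 0.67 ± 0.06 (SE), a fold of 1.59, with ratios from 0.51 to 0.81 in the 5 batches, and 95.3% of the tested genes had a lower one.

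LTA4H, which turns leukotriene A4 into leukotriene B4 and also acts as an aminopeptidase in the cytosol, was the most abundant member. It read 125, 121, 124, 120.3 and 109 TPM in cocultivated libraries 1 to 5, against 154, 139, 146, 143 and 141 TPM in non-cocultivated libraries 1 to 5. The groups did not overlap, and cocultivated library 5 lay below the other 4 of its group. The log2 fold change was -0.20 ± 0.03 (SE) and was negative in 5 of 5 batches, so the difference was far smaller in size than that of AOPEP.

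LNPEP, the insulin-regulated aminopeptidase that cleaves oxytocin and travels to the cell surface with glucose transporter vesicles, read 9.75, 7.73, 10.3, 8.27 and 7.15 TPM in cocultivated libraries 1 to 5, against 10.7, 7.31, 7.22, 7.05 and 6.84 TPM in non-cocultivated libraries 1 to 5. The groups overlapped. Non-cocultivated library 1 exceeded all 5 cocultivated libraries, and cocultivated library 5 lay below non-cocultivated libraries 2 and 3. The log2 fold change was 0.24 ± 0.10 (SE), positive in 4 batches and -0.09 in batch 1. It was 0.35 without non-cocultivated library 1 and 0.15 without batch 3.

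The cytosolic enzyme NPEPPS, which removes residues from a wide range of peptides, had nearly equal means of 83.1 ± 6.72 TPM in cocultivated and 82.9 ± 4.27 TPM in non-cocultivated cells (SD, n = 5 each), with overlapping groups. Its log2 fold change was 0.09 ± 0.04 (SE), and the 5 batch ratios were all positive, between 0.07 and 0.11. In GENCODE v29, 7.59% of its 75-base transcript windows, 959 of 12636, also occur in other genes, so part of its count is uncertain. The partner with most shared windows, AC244154.1, held 179 to 218 counts in cocultivated and 177 to 287 counts in non-cocultivated libraries, while NPEPPS held 9611 to 11481 counts in cocultivated and 9871 to 12736 counts in non-cocultivated libraries. The other 7 members shared 0 windows.

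RNPEP, aminopeptidase B, which prefers arginine and lysine, averaged 29.6 ± 0.736 TPM in cocultivated and 32.0 ± 1.21 TPM in non-cocultivated cells (SD, n = 5 each). The TPM ranges of 28.8 to 30.8 in cocultivated and 31.0 to 34.1 in non-cocultivated libraries did not overlap. On the count scale, which is rescaled between libraries, the log2 fold change was only -0.04 ± 0.05 (SE) and was negative in 4 of 5 batches. Over all tested genes the median log2 fold change was -0.07 on the TPM scale and -0.01 on the count scale.

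RNPEPL1, a relative of aminopeptidase B, averaged 13.7 ± 0.961 TPM in cocultivated and 12.1 ± 0.672 TPM in non-cocultivated cells (SD, n = 5 each), with overlapping groups. Its log2 fold change was 0.14 ± 0.05 (SE), positive in 5 of 5 batches, from 0.01 to 0.32. RNPEPL1 overlaps ANKMY1 on the opposite strand, and no source used here gives the strand setting of the counting, so its reads may include those of its neighbour. ENPEP had 1 to 2 counts in cocultivated and 0 to 2 counts in non-cocultivated libraries and was not tested. Where no read was counted, as many as 3 would still be compatible, or 0.0582 to 0.0768 CPM (counts scaled to the library total) by counting error only.

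Of the 8 members, 7 passed the filter on low counts. Among them ANPEP was higher, AOPEP and LTA4H were lower, and 4 were not past the adjusted p threshold of 0.05, while 33.6% of all 15690 genes were past it. With the batch as a block, 4 members were higher and 2 lower, LNPEP, NPEPPS and RNPEPL1 being the additional ones, against 44.4% of all genes. The TPM ranges of 4 members did not overlap, 1 of them higher and 3 lower, against 22.6% of all genes, 8.46% higher and 14.2% lower. The median log2 fold change of the 7 members was 0.09, against -0.01 over all genes.

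**Figure D1:**
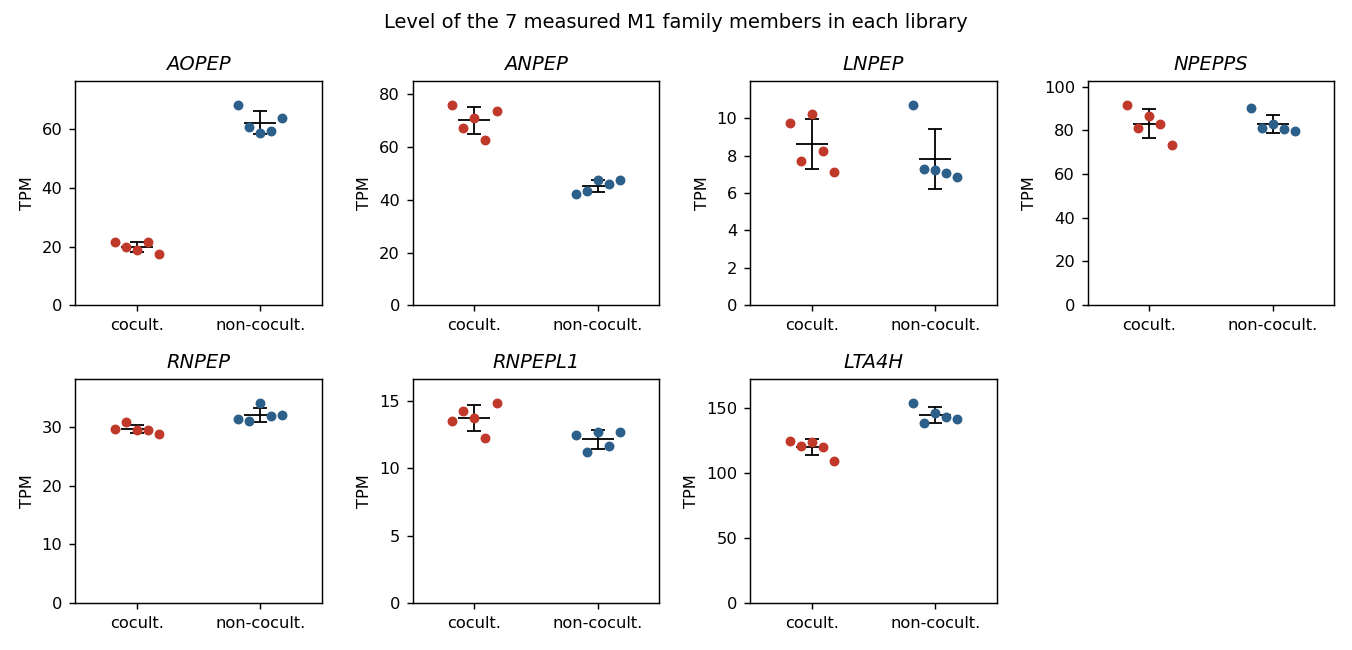
TPM of the 7 tested members in every library, cocultivated (red, left) and non-cocultivated (blue, right), with the mean and SD of 5 libraries in black; each axis starts at 0. AOPEP sits at 17.6 to 21.6 TPM in cocultivated and 58.8 to 68.3 TPM in non-cocultivated libraries, ANPEP is separated in the other direction, and LNPEP shows 1 high non-cocultivated library.

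**Figure D2:**
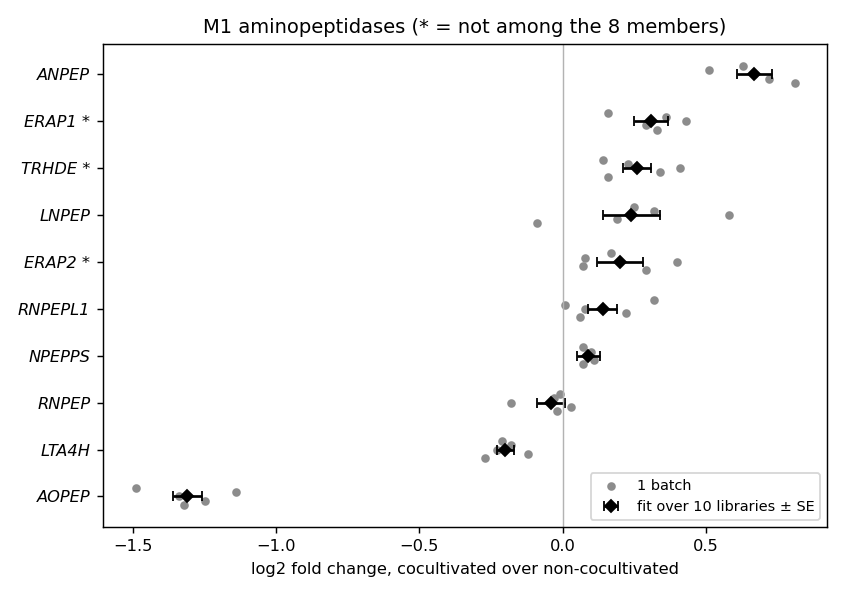
Log2 fold change, cocultivated over non-cocultivated, of the 10 tested M1 genes; diamonds are the fit over 10 libraries with its SE and grey points are the 5 batches. The 5 batch points of AOPEP lie between -1.49 and -1.14, apart from those of every other M1 gene plotted.

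The deposited tables also give, for each library, the mean transcript length of a gene, weighted by how much each transcript was used. For AOPEP it was 1174, 1171, 1204, 1160 and 1113 bases in cocultivated libraries 1 to 5, against 988, 1000, 1021, 1005 and 992 bases in non-cocultivated libraries 1 to 5. Every cocultivated library thus had the longer mean, by 163 bases between the group means. Of the 13620 tested genes with more than 1 transcript, 2.25% had lengths that did not overlap between the groups, and none of the other 6 tested members was among them.

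The tables list 22 AOPEP transcripts, all of them in GENCODE v29, with lengths of 443 to 3136 bases. Of these, 13 are shorter than 1000 bases, and 3 of the 8 protein-coding ones are. Levels of single transcripts were not analysed here. TPM is corrected for length within each library and takes no scaling factor between libraries, and the ratio of mean TPM of AOPEP was 0.319, against a fold of 0.404 on the scaled counts. Among the other tested members, LNPEP had the largest difference, 240 bases on a mean of 11846 in cocultivated libraries, followed by RNPEPL1 at -196 bases, and both overlapped between groups.

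**Figure D3:**
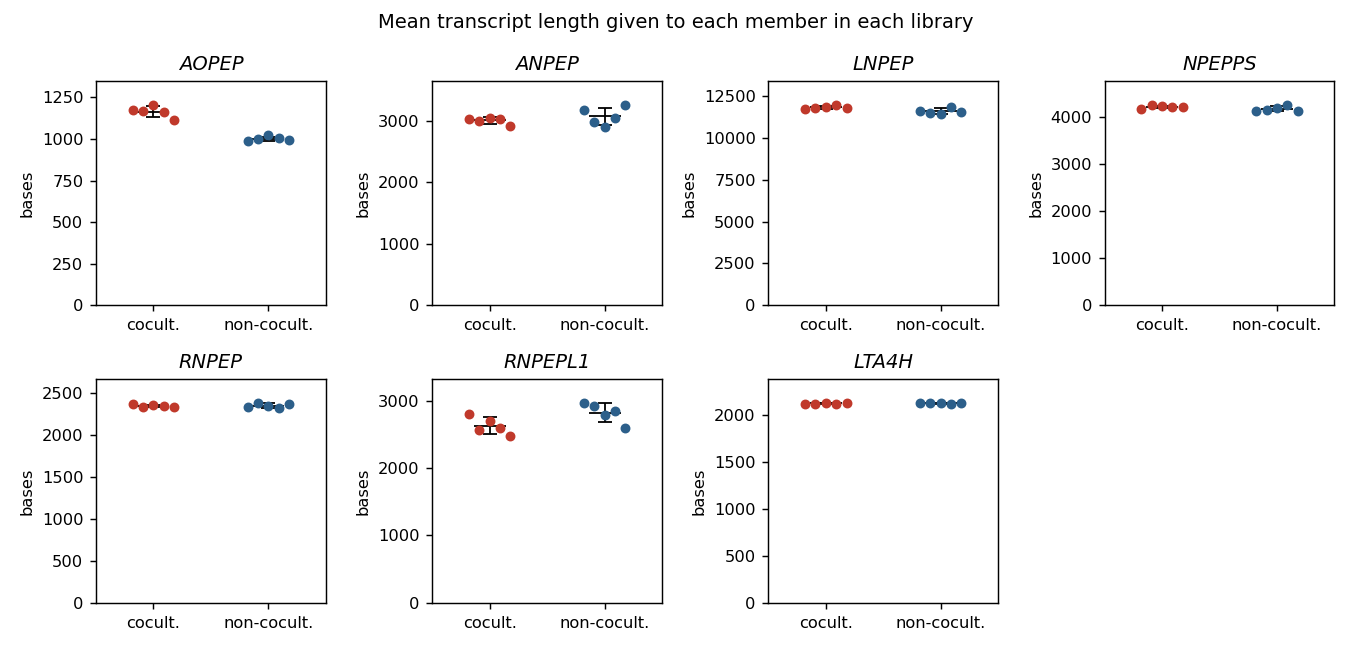
Mean transcript length in bases that the deposited tables give for the 7 tested members in every library, cocultivated (red, left) and non-cocultivated (blue, right), with the mean and SD in black. AOPEP is the member whose groups separate, at 1113 to 1204 bases in cocultivated and 988 to 1021 bases in non-cocultivated libraries.

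Ordered by TPM, the members ran LTA4H, NPEPPS, ANPEP, RNPEP, AOPEP, RNPEPL1, LNPEP and ENPEP in cocultivated cells, and LTA4H, NPEPPS, AOPEP, ANPEP, RNPEP, RNPEPL1, LNPEP and ENPEP in non-cocultivated cells. AOPEP stood in place 5 in cocultivated and place 3 in non-cocultivated cells, in 5 of 5 libraries of each group. Neighbours in these orders had separate TPM ranges, except NPEPPS and ANPEP in cocultivated cells, where ANPEP at 73.7 TPM exceeded NPEPPS at 73.3 TPM in library 5.

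The place of AOPEP depends on the length used. When the scaled counts were divided instead by the longest protein-coding transcript of each gene in GENCODE v29, which is 3136 bases for AOPEP, it had 4.63 ± 0.349 CPM per kilobase in cocultivated and 11.4 ± 0.329 in non-cocultivated cells (SD, n = 5 each). That put it in place 6 in cocultivated and place 5 in non-cocultivated cells. On that scale LNPEP, at 5.82 ± 0.620 in cocultivated cells, ranked above AOPEP there, and LTA4H, NPEPPS and ANPEP took the first places in both groups. The fixed length was chosen after the shift in length was seen.

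**Figure D4:**
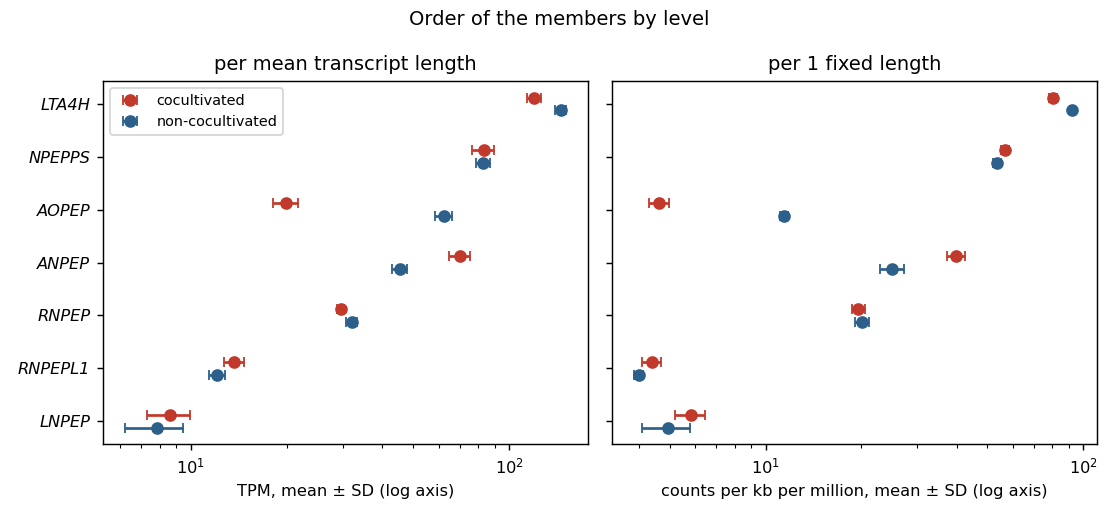
Level of the 7 tested members as mean and SD of 5 libraries on log axes, cocultivated in red above non-cocultivated in blue; the left panel is in TPM and the right panel in CPM per kilobase of 1 fixed transcript length. Both panels list the genes in the same order, that of TPM in non-cocultivated cells. In the right panel AOPEP is at 4.63 in cocultivated and 11.4 in non-cocultivated cells, a lower place by value than in TPM.

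The 4 other M1 aminopeptidases were measured in the same libraries, and each adjusted p that follows for a gene outside the members comes from edgeR's quasi-likelihood test with Benjamini-Hochberg adjustment over 15690 genes. Of the 3 that passed the filter, 2 rose and none fell, against 17.9% of all genes higher and 15.8% lower. ERAP1, which trims antigens in the endoplasmic reticulum, averaged 10.0 ± 0.941 TPM in cocultivated and 8.74 ± 1.02 TPM in non-cocultivated cells, with a log2 fold change of 0.31 ± 0.06 (SE) and an adjusted p of 7.04e-04. It was higher in 5 of 5 batches although the TPM groups overlapped. ERAP1 overlaps CAST on the opposite strand, and whether its count includes reads of CAST was not tested.

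TRHDE, which inactivates thyrotropin-releasing hormone, rose by a log2 fold change of 0.26 ± 0.05 (SE; adjusted p = 0.00149), with 17.7 ± 3.54 TPM in cocultivated and 16.3 ± 2.32 TPM in non-cocultivated cells. It was also higher in 5 of 5 batches. TRHDE overlaps TPH2 on the same strand, and 0.28% of its 75-base transcript windows, 33 of 11946, also occur in TPH2. Neither ERAP1 nor TRHDE was past the threshold when limma was run on log2(TPM + 0.5). ERAP2, the second antigen-trimming enzyme, had a log2 fold change of 0.20 ± 0.08 (SE) and an adjusted p of 0.0613, or 0.0206 with the batch as a block. LVRN had 0 to 5 counts in cocultivated and 1 to 8 counts in non-cocultivated libraries and was not tested.

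Among 23 further exopeptidases of peptide turnover, 21 were tested. Of these, 4 rose and 6 fell, against 17.9% of all genes higher and 15.8% lower. The smallest p belonged to DPP4, a membrane enzyme that removes dipeptides ending in proline or alanine. DPP4 read 25.3, 22.8, 20.7, 23.3 and 16.1 TPM in cocultivated libraries 1 to 5, against 47.4, 43.9, 43.4, 41.9 and 41.1 TPM in non-cocultivated libraries 1 to 5. The groups did not overlap, and its log2 fold change was -0.94 ± 0.08 (SE; adjusted p = 1.09e-06), negative in 5 of 5 batches.

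Its cytosolic relative DPP9 rose slightly, with 103 ± 5.60 TPM in cocultivated and 92.1 ± 2.70 TPM in non-cocultivated cells and a log2 fold change of 0.24 ± 0.04 (SE; adjusted p = 2.08e-04). APEH, which removes acetylated N-terminal residues, fell, with 41.5 ± 2.52 TPM in cocultivated and 51.6 ± 2.77 TPM in non-cocultivated cells (log2 fold change -0.20 ± 0.03, SE; adjusted p = 3.54e-04). The others past the threshold were PEPD, TPP1 and DPP3, which rose, and LAP3, BLMH, METAP2 and ACY1, which fell, all by less than 0.4 on the log2 scale. PEPD, TPP1 and DPP3 were not past the threshold without batch 2, nor DPP3 without batch 3, and on log2(TPM + 0.5) neither TPP1 nor DPP3 was, nor TPP1 with library totals. BLMH was past it in 8 of 15 fits with libraries left out, being lost without cocultivated library 1 or 5, non-cocultivated library 2, 3 or 4, or batch 2 or 3. METAP2 was past it in 9 of 15, being lost without non-cocultivated library 2, 3 or 4 or batch 2, 3 or 5. XPNPEP3, with a log2 fold change of -0.17 ± 0.08 (SE; adjusted p = 0.124), was past the threshold as lower with the batch as a block (adjusted p = 0.00419). The median of the 21 was -0.00.

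In the angiotensin system, 7 of 14 listed genes in the tables were tested. Of these, 2 rose and 2 fell, against 17.9% of all genes higher and 15.8% lower. MME, the gene of neprilysin, which cleaves angiotensins and other peptides at the cell surface, rose at a low level. It read 1.25, 1.5, 1.96, 1.03 and 1.48 TPM in cocultivated libraries 1 to 5, against 0.40, 0.55, 0.44, 0.31 and 0.23 TPM in non-cocultivated libraries 1 to 5. The groups were apart, with a log2 fold change of 2.17 ± 0.16 (SE; adjusted p = 5.23e-07), the largest rise in size among the listed peptidases tested.

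ATP6AP2, an accessory subunit of the vacuolar proton pump, rose by 0.25 ± 0.06 on the log2 scale (SE; adjusted p = 0.00582). PREP, an oligopeptidase that cuts after proline, had a log2 fold change of -0.16 ± 0.05 (SE; adjusted p = 0.0201), and it was not past the threshold without non-cocultivated library 3 or 4 or without batch 3, 4 or 5. The fourth, ACE, was at 0.146 ± 0.0702 TPM in cocultivated and 0.318 ± 0.178 TPM in non-cocultivated cells, with an adjusted p of 0.0447 that held in 2 of 14 fits with libraries left out and was lost without the filter, with DESeq2 and on log2(TPM + 0.5). AGT, AGTR2, MAS1, CMA1 and CTSG were among those that did not pass the filter. AGT, the precursor of the angiotensins, had 3 to 17 counts in cocultivated and 1 to 10 counts in non-cocultivated libraries. PRCP, a lysosomal carboxypeptidase, with a log2 fold change of -0.11 ± 0.08 (SE; adjusted p = 0.311), was past the threshold as lower with the batch as a block (adjusted p = 0.0302). THOP1 was not analysed here.

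Around LTA4H in the leukotriene pathway, 7 of 21 rows were tested. Among these 2 rose and 2 fell, against 17.9% of all genes higher and 15.8% lower. PTGR1, which inactivates leukotriene B4, rose to 59.8 ± 4.07 TPM in cocultivated cells, against 46.2 ± 2.49 TPM in non-cocultivated cells (log2 fold change 0.47 ± 0.05, SE; adjusted p = 2.05e-05). MGST2, which can conjugate leukotriene A4 with glutathione, rose to 57.7 ± 2.69 TPM in cocultivated cells, against 45.9 ± 4.55 TPM in non-cocultivated cells (log2 fold change 0.40 ± 0.06, SE; adjusted p = 3.49e-04). PLA2G4A, the phospholipase that releases arachidonic acid, had a log2 fold change of -0.22 ± 0.06 (SE; adjusted p = 0.0197), lost without cocultivated library 2 or without batch 2, 3 or 5. The other was GGT1, which processes leukotriene C4, under 1 of its 2 identifiers, with a log2 fold change of -0.19 ± 0.07 (SE; adjusted p = 0.0495). It was past the threshold in 4 of 15 fits with libraries left out, those without cocultivated library 4, non-cocultivated library 1 or 5, or batch 4. ALOX5, ALOX5AP and LTC4S, which make leukotriene A4 and C4, were too low to be tested.

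Of 14 genes for the vesicles that carry LNPEP and for their sorting, 13 were tested. Among these 5 rose and 3 fell, against 17.9% of all genes higher and 15.8% lower. SORT1, the sorting receptor sortilin, fell, with 5.68 ± 0.320 TPM in cocultivated and 7.44 ± 0.365 TPM in non-cocultivated cells (log2 fold change -0.32 ± 0.04, SE; adjusted p = 5.97e-05). SLC2A1, a glucose transporter, fell by a log2 fold change of -0.43 ± 0.07 (SE; adjusted p = 2.87e-04), and STX4, which helps the vesicles fuse with the cell surface, rose by 0.28 ± 0.05 (SE; adjusted p = 3.64e-04). LRP1, IGF2R, TBC1D1 and SNAP23 also rose, and TBC1D4 fell, with log2 fold changes from -0.28 to 0.80. IGF2R was lost on log2(TPM + 0.5) and without batch 2, 3 or 5, TBC1D1 without batch 2, and SNAP23 with library totals, without the filter, on log2(TPM + 0.5) and without batch 3 or 4. RAB10, with a log2 fold change of 0.12 ± 0.04 (SE; adjusted p = 0.0555), was past the threshold as higher with the batch as a block (adjusted p = 0.0101). SLC2A4, the insulin-regulated glucose transporter found with LNPEP in fat and muscle cells, was too low to be tested.

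**Figure D5:**
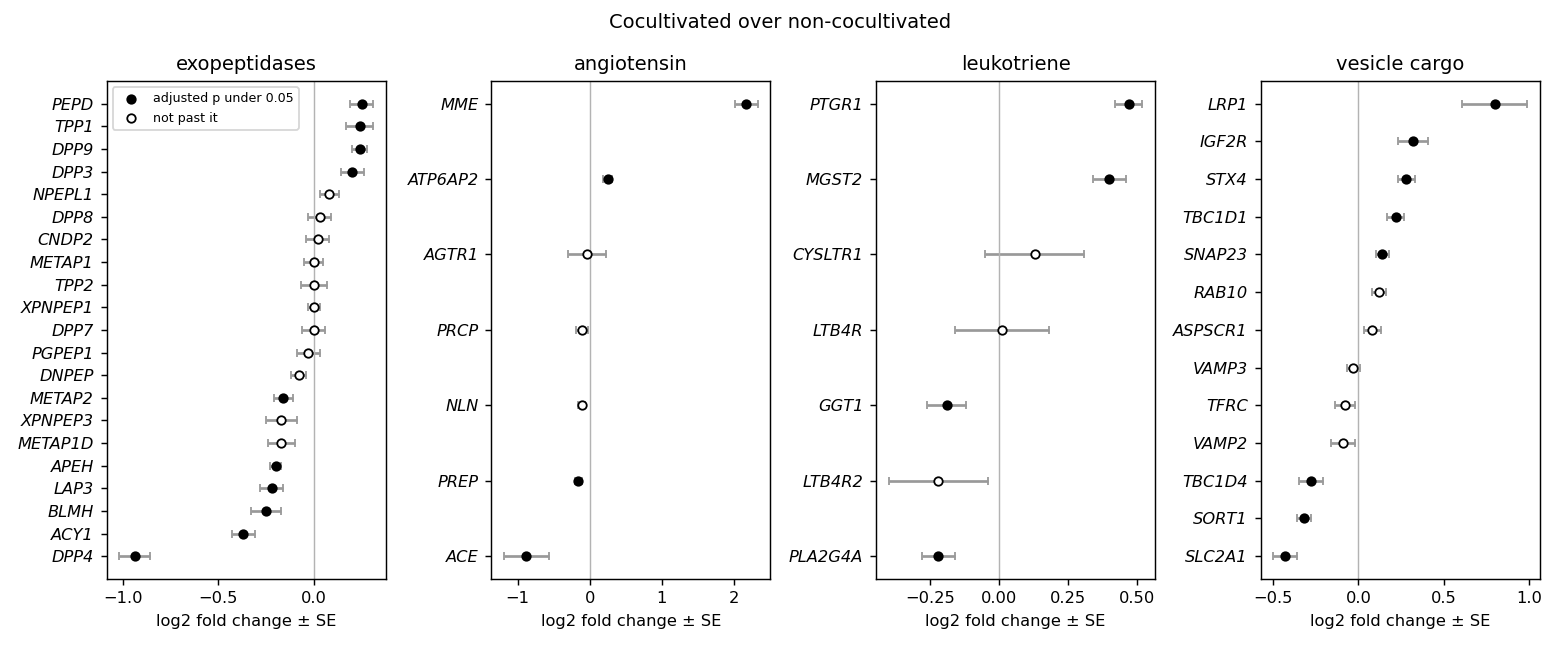
Log2 fold change with its SE, cocultivated over non-cocultivated, of every tested gene in the lists of exopeptidases, the angiotensin system, the leukotriene pathway and vesicle cargo; filled points had an adjusted p under 0.05, and each panel has its own scale. DPP4 at -0.94 and MME at 2.17 lie farthest from 0 in their panels.

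The protein-coding neighbours of AOPEP on chromosome 9 did not pass the threshold in the test over all genes. FBP1, a gluconeogenesis gene upstream on the opposite strand, averaged 1.61 ± 0.463 TPM in cocultivated and 1.70 ± 0.210 TPM in non-cocultivated cells, with a log2 fold change of -0.04 ± 0.14 (SE; adjusted p = 0.914). FANCC, a DNA repair gene downstream on the opposite strand, averaged 10.0 ± 0.660 TPM in cocultivated and 11.4 ± 1.35 TPM in non-cocultivated cells. Its log2 fold change was -0.11 ± 0.06 (SE; adjusted p = 0.19, or 0.0395 with the batch as a block).

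The genes whose log2 CPM followed that of AOPEP most closely over the 10 libraries were MANSC1, ADGRF1, SPRY1, TBXAS1 and OTULINL, with Pearson's r of 0.995 to 0.996. They were taken from 10578 genes at a mean of at least 5 CPM, of which 309 had an r over 0.95. A shared group difference by itself gives a high r. With the group means removed, r was 0.70 for MANSC1, 0.68 for ADGRF1, 0.77 for SPRY1, 0.75 for TBXAS1 and 0.64 for OTULINL. The r that picked these genes includes the variation within groups, so these values are high by selection and only describe them. All 5 were lower in cocultivated cells, with log2 fold changes from -1.66 for ADGRF1, an adhesion receptor, to -0.80 for MANSC1. TBXAS1, thromboxane synthase, read 19.4 ± 1.96 TPM in cocultivated and 47.2 ± 4.19 TPM in non-cocultivated cells, and SPRY1, an inhibitor of growth factor signalling, read 45.1 ± 6.01 TPM in cocultivated and 112 ± 4.29 TPM in non-cocultivated cells.

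Over the whole table, 2801 genes were higher and 2478 lower, and with library totals in place of the scaling factors 2216 were higher and 3555 lower. On log2(TPM + 0.5) the split was 1732 higher and 2961 lower. Libraries held 39074949 to 51515712 expected counts. The PC3 epithelial markers KRT8, KRT18, KRT19, EPCAM and CDH1 were present in all libraries. Their summed level was 667 to 772 CPM in cocultivated and 970 to 1040 CPM in non-cocultivated libraries. Of these 5 markers, 5 were past the threshold as lower, EPCAM only narrowly, at -0.14 ± 0.05 (SE; adjusted p = 0.0473). Here and for the marker counts that follow, the shares over all genes were 17.9% higher and 15.8% lower. Adipocyte markers summed to 43.9 to 62.8 CPM in cocultivated and 26.5 to 33.2 CPM in non-cocultivated libraries, with PLIN4 and LIPE higher and CIDEC lower among 4 tested of 9. PLIN4, at a mean of 2114 counts in cocultivated and 1071 in non-cocultivated libraries, made up most of that sum. In the same order CIDEC averaged 98.0 and 199 counts and LIPE 89.0 and 60.0. The adipocyte genes ADIPOQ, LEP, CIDEA and TRARG1 had under 3 counts in every library. PLIN1 had 5 to 14 counts in cocultivated and 11 to 18 counts in non-cocultivated libraries and was not past the threshold. GPD1 had 1 to 3 counts in cocultivated and 1 to 5 counts in non-cocultivated libraries and was not tested. Marrow stroma markers summed to 7.93 to 10.2 CPM in cocultivated and 10.8 to 13.1 CPM in non-cocultivated libraries, with 1 of 5 tested higher and 3 lower, and CXCL12 and THY1 were under 3 counts. Myeloid and blood markers summed to 42.6 to 50.2 CPM in cocultivated and 32.9 to 39.5 CPM in non-cocultivated libraries, with CD68 higher and LYZ lower and ITGAM, SPI1 and HBB under 3 counts. CD68, at a mean of 1966 counts in cocultivated and 1522 in non-cocultivated libraries, made up most of that sum. LYZ averaged 24.7 counts in cocultivated and 106 in non-cocultivated libraries. Endothelial markers summed to 18.7 to 25.9 CPM in cocultivated and 31.6 to 43.6 CPM in non-cocultivated libraries, with 1 of 3 tested higher and 1 lower. The part of these markers in the values of the M1 genes was not tested.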

How the data were processed

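RNA of PC3 cells was measured in 10 libraries. Per the labels' protocols, a stranded mRNA kit was used. Per the submitters' processing notes, bcl2fastq, Bowtie2 2.4.4 and RSEM 1.3.3 were used; no source used here gives the genome build, the annotation or the strand setting. The deposited expected counts are estimated reads per gene, with reads that match several genes shared out. The deposited TPM values are corrected by the authors for transcript length, and the deposited FPKM values were not used. The deposited length columns are in bases.

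Expected counts were rounded, filtered with filterByExpr (minimum count 10, minimum total 15), scaled with TMM factors (0.953 to 1.04) and tested by group with edgeR 4.0.16's quasi-likelihood test in R 4.3.3, with Benjamini-Hochberg adjustment and a threshold of 0.05. The fit was tested on simulated data. No pair of libraries within a group was a duplicate, since the chi-square per degree of freedom between them was at least 4.97. Pairs across the groups were not examined. The alternatives used limma 3.58.1, DESeq2 1.42.0, other scalings and filters, and left-out libraries.

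The labels give each batch number to 1 library of each group, which pairs them. The deviations of same-numbered libraries from their group means had correlations from -0.019 to 0.329.

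The members and the gene lists were chosen with earlier results of these data known. Named genes are the members, the other M1 genes, the 3 tested genes with the smallest p in each other list, the neighbours of AOPEP and the 5 genes most like it, by a stated rule; other listed genes past the threshold were named after their values were seen. No pseudogene named after a member was found among the genes tested. Of the 60558 identifiers, 96.6% occur in GENCODE v29, which was used for transcript lengths, neighbours and shared windows, and RefSeq gave the printed sequences.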

Additional observations from a re-analysis of the deposited data

Results flagged for a closer look

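In 3 of 40 sets of 5 values, the TPM or the mean transcript length of 1 M1 gene in 1 group, a library stood farther from its nearest neighbour, as a share of the whole range, than Dixon's critical value. Chance alone sets apart about 1 in 20 such sets. LNPEP read 10.71 TPM in non-cocultivated library 1, with a gap of 0.879 of the range. LTA4H read 109.13 TPM in cocultivated library 5, with a gap of 0.719 of the range. ERAP2 had a mean transcript length of 3720 bases in non-cocultivated library 5, with a gap of 0.789 of the range.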

How the results depend on the processing

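The log2 fold changes of AOPEP (-1.35 to -1.25), ANPEP (0.63 to 0.71) and LTA4H (-0.22 to -0.19) kept their sign in all 15 fits without a library or a batch, and no sign of these 3 turned under another scaling, filter or tool. With library totals, NPEPPS was at 0.03 and LTA4H at -0.26, and the median over all genes moved from -0.01 to -0.06. With limma on log2(TPM + 0.5), AOPEP was at -1.62, NPEPPS at 0.00 and LTA4H at -0.27. On that scale 1732 genes over the whole table were higher, as were 0 other M1 genes, 2 other exopeptidases and 3 vesicle genes. With libraries left out, the vesicle genes higher numbered 3 to 6, the exopeptidases higher 1 to 4, and the angiotensin and leukotriene genes lower 0 to 2 each. Over the whole table those fits gave 2116 to 3041 genes higher and 1702 to 2675 lower. With the batch as a replicate block AOPEP was at -1.31, the members called higher numbered 4 in place of 1, and no count of the 5 other lists moved by over 1.5 times. Per fixed length, in cocultivated cells AOPEP was in place 6, LNPEP 5 and RNPEPL1 7, and in non-cocultivated cells AOPEP was in place 5, ANPEP 3, RNPEP 4, LNPEP 6 and RNPEPL1 7. In cocultivated library 5 alone, ANPEP was in place 2 and NPEPPS in place 3. Apart from the fixed length, whose own construction sets it, the cause of these shifts was not tested. Depth limits ENPEP and LVRN, with at most 8 counts.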
